A study of Homo sapiens with 9 samples.

Results

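The genes described here are the enzymes of cholesterol synthesis, the SREBP machinery that sets their transcription, and a few genes of sterol handling. These 28 genes were chosen by name, with earlier results of these data known. They comprise 20 enzymes, 5 SREBP regulators and 3 sterol handling genes. Of the 28, 26 had a probe on the array, and 25 of these were among the 13118 genes bright enough to be tested. No probe was annotated to FDFT1 or GGPS1, so neither has an expression value here. STARD4, a cytosolic sterol carrier, was measured but stayed under the signal filter, with log2 signals between 5.84 and 6.14 on the 9 arrays, and has no test.

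Abundance was measured in cytoplasmic RNA of HCT116, a human colorectal carcinoma cell line, 72 h after transfection, and the cells had received control siRNA, GANP siRNA or NXF1 siRNA. GANP is the scaffold of the TREX-2 mRNA export complex and NXF1 is the principal mRNA export receptor, and the study asked how the abundance of cytoplasmic RNAs differs once either is depleted. All 3 groups are the same unmodified cell line. The control siRNA is a mismatch version of the GANP siRNA. A single siRNA sequence was used per target, and the cytoplasm was separated by digitonin permeabilisation. Each group has 3 Illumina HumanWG-6 v3 arrays, 1 from each of 3 independent depletion experiments, and values are given below in the order of experiments 1, 2 and 3.

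MCM3AP, which encodes GANP, stood at log2 signals of 9.59 to 9.88 on the control arrays, 8.59 to 8.80 on the GANP siRNA arrays and 9.65 to 9.82 on the NXF1 siRNA arrays, so its mRNA was lower on every GANP siRNA array. No probe carried the symbol NXF1. The epithelial markers EPCAM, KRT8, KRT18 and KRT19 were bright in the control group (mean log2 signals of 12.42 to 15.04), and VIL1 stayed under the filter. Of the epithelial markers, 7 of 8 were tested, CDH1, CLDN4 and CLDN7 among them. After NXF1 siRNA 5 of the 7 rose, where 11.6% of all genes rose. Of 6 fibroblast and 6 blood cell markers, 2 each passed the filter. The fibroblast markers COL1A1 and DCN passed and were not called, with log2 fold changes between -0.067 and 0.018 after NXF1 siRNA. Of the blood markers, HBA1 rose by 0.74 on the log2 scale after NXF1 siRNA, and the other that passed was higher by 0.35 without a call. The blood markers PTPRC, CD3E and HBB and the fibroblast markers COL1A2, COL3A1, LUM and PDGFRB stayed under the filter. Of 4 listed noncoding RNAs of the nucleus, 1 was tested, RN7SK, while MALAT1, NEAT1 and SNHG1 had no test. RN7SK was raised by 1.12 after GANP siRNA and by 2.51 after NXF1 siRNA. The part of these markers and of RN7SK in the results was not tested.

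Cholesterol is built in the cytosol and the endoplasmic reticulum. Acetyl-CoA is joined into mevalonate, mevalonate is turned into isoprenoid diphosphates, these are condensed into squalene, squalene is closed into lanosterol, and lanosterol is trimmed and rearranged into cholesterol. The genes of this route are known targets of SREBP-2, a transcription factor held in the endoplasmic reticulum membrane as a precursor. When membrane sterol is low, SCAP escorts the precursor to the Golgi, where it is cut and its active end is released to the nucleus. When sterol is plentiful, INSIG proteins hold SCAP back. INSIG1 is itself an SREBP target, so the pathway carries its own brake.

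SREBP binds a sterol regulatory element and works with NF-Y, which binds CCAAT, and with Sp1, which binds GC boxes. RefSeq promoter windows (GRCh38.p14, from 250 bases before to 50 bases after the gene start) were at hand for 25 of the 28 genes and were searched on both strands for TCACNCCAC (sterol regulatory element), CCAAT and GGGCGG (GC box). A base could count toward more than 1 motif. The 25 genes with a window are not the 25 tested genes. They include GGPS1 and STARD4, while ACAT2, SQLE and FDFT1 had no window. The sterol element was found in 1 of 25 windows (4%), against 1.025% of 10636 tested genes with a window, and that gene was SREBF2. CCAAT was found in 16 of 25 (64%), against 36.97%, and GGGCGG in 22 of 25 (88%), against 66.21%. A match is a match of letters only, and the lack of a match does not show that no element is present. Elements spelled otherwise or lying outside the window were not counted. The SREBF2 element is printed because it was the only match among the 25, at chr22:41832962-41832990 on the plus strand, 133 bases before the start. HMGCS1 and HSD17B7 had more than 1 CCAAT box. The CCAAT boxes shown are those nearest before the start of the 5 genes that differed between the depletions (LSS, TM7SF2, HMGCS1, INSIG1 and HSD17B7). These lie at chr21:46228910-46228934 (minus strand), chr11:65111788-65111812 (plus), chr5:43313498-43313522 (minus), chr7:155297698-155297722 (plus) and chr1:162790640-162790664 (plus), 52 to 170 bases before the start. All sequences read along the strand of the gene and capitals mark the match. In the 5 CCAAT lines the box lies on the opposite strand and so reads ATTGG.
SREBF2: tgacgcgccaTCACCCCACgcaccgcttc
LSS: cggcgctctgATTGGttgcgtgggc
TM7SF2: ccgagcgccgATTGGctggtgtgct
HMGCS1: accggccgcgATTGGctgtgggagc
INSIG1: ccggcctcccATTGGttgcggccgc
HSD17B7: gcggactgagATTGGagggatcagc

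The authors' normalized signals were corrected for background, normalized between arrays and taken to log2, and each gene is represented by its brightest probe. A gene was called when limma's moderated test gave a Benjamini-Hochberg adjusted p under 0.05 over all 13118 genes together with a log2 fold change over 0.25 or under -0.25. A log2 fold change of 1 is a doubling. Values are relative to the other RNAs of the same array, since the arrays were scaled to the same distribution. In bulk RNA, fewer cells carrying an mRNA and less of it per cell cannot be told apart, and nor can altered export, synthesis and decay, because only the cytoplasm was measured.

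After GANP siRNA 21 of the 25 tested genes were not called, and the change of TM7SF2 exceeded that of every other member. TM7SF2, one of a pair of enzymes that reduce the C14 double bond of the sterol ring, roughly doubled. HSD17B7, the 3-ketosteroid reductase of C4 demethylation, rose by 0.48 on the log2 scale, and ACAT2, the cytosolic thiolase that opens the pathway, rose by 0.36. TMEM97, an endoplasmic reticulum protein that binds the lysosomal sterol exporter NPC1, fell by 0.44. Of the 25 genes tested, 3 (12%) rose and 1 (4%) fell, against 6.28% and 5.90% of all genes tested, and their median log2 fold change was 0.0078, beside 0.0018 over all genes.

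TM7SF2 gave log2 signals of 9.32, 9.04 and 8.99 with control siRNA and 10.16, 10.25 and 10.09 with GANP siRNA. The lowest GANP siRNA array lay well above the highest control array. The difference was 1.05 (standard error 0.10, 95% interval 0.84 to 1.26, adjusted p = 7.0e-05), a 2.07-fold change that ranked 8 from the top of the 13118 genes. LBR, the inner nuclear membrane protein that carries out the same reduction, was not called, at -0.081 (95% interval -0.33 to 0.17).

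HSD17B7 gave 9.56, 9.50 and 9.71 with control siRNA and 10.08, 9.86 and 10.27 with GANP siRNA. The groups did not overlap, and the difference was 0.48 (standard error 0.10, adjusted p = 0.011). Without control array 2 it was 0.43 with an adjusted p of 0.0525, which is no call. RefSeq lists 2 pseudogenes named after HSD17B7, and a probe may not tell them from the gene.

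ACAT2 gave 12.23, 12.07 and 12.05 with control siRNA and 12.64, 12.39 and 12.39 with GANP siRNA. Every GANP siRNA array was above every control array, and the rise was even across experiments, at 0.41, 0.32 and 0.34. The difference of 0.36 (standard error 0.10, adjusted p = 0.035) was the least secure of these calls. Leaving out control array 2 or 3, or GANP siRNA array 1, 2 or 3, gave adjusted p values of 0.118, 0.109, 0.115, 0.0536 and 0.0526. Part of ACAT2 overlaps TCP1 and SOD2 in RefSeq, which a probe could in principle also read. A second probe annotated to the same ACAT2 transcript stayed under the signal filter, at a mean log2 signal of 6.27, and has no test.

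TMEM97 gave 11.62, 11.75 and 11.68 with control siRNA and 11.16, 11.31 and 11.27 with GANP siRNA. The groups stood apart, and the fall was 0.47, 0.44 and 0.41 in the 3 experiments (mean difference -0.44, standard error 0.09, adjusted p = 0.0070). TMEM97 also has pseudogenes in RefSeq.

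The remaining enzymes of the mevalonate arm and the isoprenoid steps were not called after GANP siRNA. HMGCS1, which makes HMG-CoA, was higher by 0.23 with an adjusted p of 0.087, although all 3 arrays were above the controls. The kinases MVK and PMVK, the decarboxylase MVD, the isomerase IDI1 and the farnesyl diphosphate synthase FDPS had differences between -0.069 and 0.065, with 95% intervals that reached no lower than -0.34 and no higher than 0.36. SQLE, the monooxygenase that oxidises squalene, differed by 0.073, and LSS, the cyclase that makes lanosterol, by 0.17. Farther down the route, MSMO1, a C4 methyl oxidase, and SC5D, the lathosterol oxidase, were higher by 0.29 and 0.30 without a call (adjusted p = 0.19 and 0.14), and EBP, the sterol isomerase, was lower by 0.22 (adjusted p = 0.20). DHCR7, which catalyses the last reduction of the lathosterol route, had a 95% interval of -0.23 to 0.23.

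With the experiment number as a block in the fit, MSMO1 was called after GANP siRNA as well (adjusted p = 0.033). Over all genes the block raised the count of rising genes from 824 to 1194. The control arrays read 9.17, 9.41 and 9.47 for MSMO1 and the GANP siRNA arrays 9.32, 9.67 and 9.92. The groups overlapped, but within each experiment the GANP siRNA array was the higher, by 0.15, 0.26 and 0.45. Without GANP siRNA array 1, MSMO1 and SC5D were called too, at 0.45 and 0.43 (adjusted p = 0.030 and 0.043). Without control array 2, 1 of the 25 genes rose in place of 3, and over all genes 488 rose in place of 824.

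**Figure D1:**
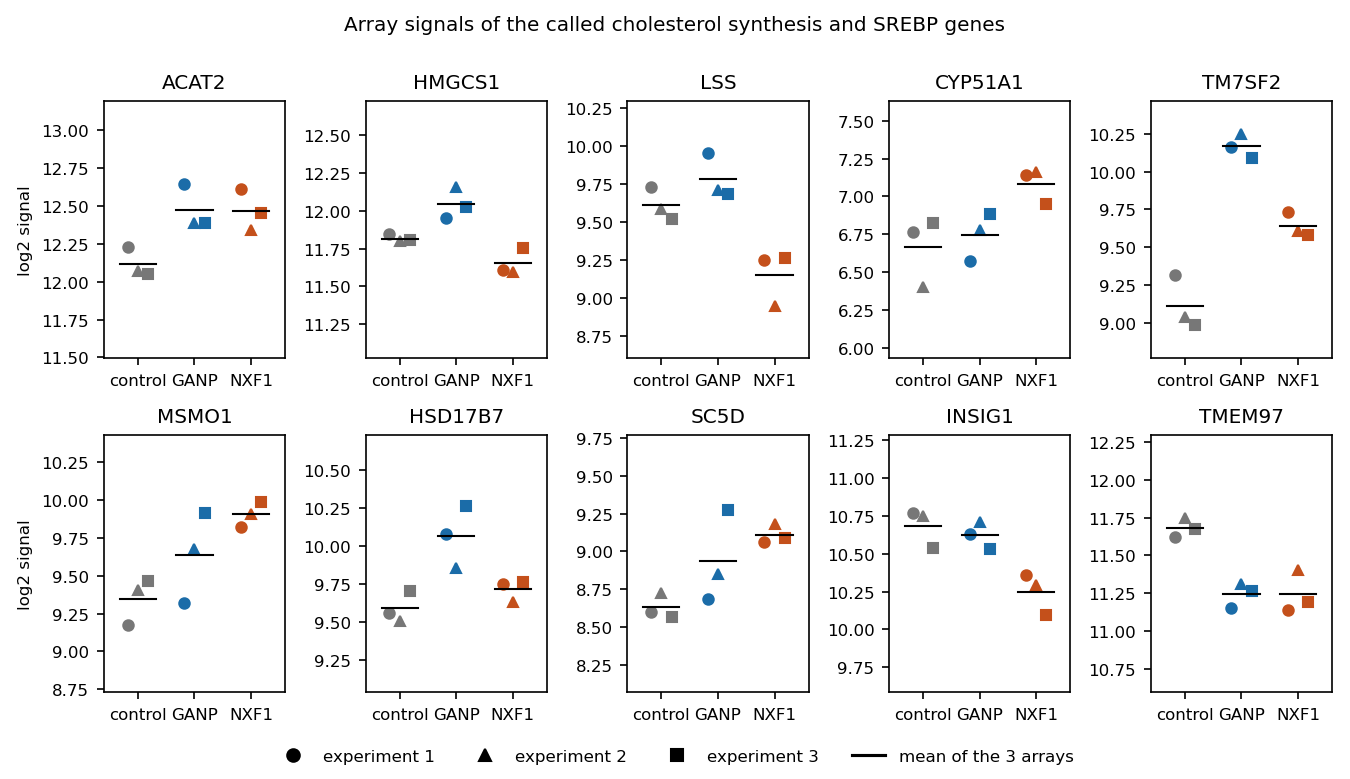
Log2 signal (vertical axis, a span of 1.7 log2 units in each panel) of the 10 genes called in any comparison, by siRNA group; each point is 1 array, its shape gives the experiment and the bar is the mean of 3 arrays. TM7SF2 stood highest with GANP siRNA (10.09 to 10.25) and lowest with control siRNA (8.99 to 9.32), while LSS and INSIG1 were lowest with NXF1 siRNA.

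After NXF1 siRNA 8 of the 25 sterol genes were called, and they went both ways. Of the 9 enzymes from lanosterol to cholesterol, 4 rose and 5 were not called. MSMO1 rose by 0.56, TM7SF2 by 0.52, SC5D by 0.48 and CYP51A1, the lanosterol demethylase, by 0.42 on the log2 scale. At the start of the route, ACAT2 rose by 0.35. LSS fell by 0.46, TMEM97 by 0.44 and INSIG1 by 0.43. Of 25 genes tested, 5 (20%) rose and 3 (12%) fell, against 11.6% and 14.0% of all genes, and the median was 0.046, beside -0.0030 over all genes.

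MSMO1 gave 9.82, 9.91 and 9.99 with NXF1 siRNA, all above the control arrays listed above. The difference was 0.56 (standard error 0.13, adjusted p = 0.0075), and it kept its call in all 18 alternatives that gave it a value. TM7SF2 gave 9.73, 9.61 and 9.58, above each control array and below each GANP siRNA array (difference from control 0.52, standard error 0.10, adjusted p = 0.0016).

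SC5D gave 8.60, 8.73 and 8.57 with control siRNA, 8.68, 8.85 and 9.27 with GANP siRNA, and 9.06, 9.18 and 9.09 with NXF1 siRNA. The NXF1 siRNA arrays were tightly grouped above the controls, while 1 GANP siRNA array, that of experiment 3, was the highest of all 9. The difference between NXF1 and control siRNA was 0.48 (standard error 0.12, adjusted p = 0.012), and without NXF1 siRNA array 2 its adjusted p rose to the threshold and the call was lost. With the mean of the SC5D probes it was 0.21, also without a call (adjusted p = 0.19).

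CYP51A1 was a dim probe, with 6.77, 6.40 and 6.82 in the control group, 6.57, 6.78 and 6.88 with GANP siRNA, and 7.14, 7.16 and 6.95 with NXF1 siRNA. The NXF1 siRNA arrays all lay above the others. The difference from control was 0.42 (standard error 0.12, adjusted p = 0.020) and rested on single arrays, since the adjusted p was 0.093 without control array 2 and 0.0529 and 0.073 without NXF1 siRNA arrays 1 and 2. CYP51A1 has pseudogenes in RefSeq.

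ACAT2 gave 12.61, 12.34 and 12.45 with NXF1 siRNA, close to its GANP siRNA values and above all controls. The difference from control was 0.35 (standard error 0.10, adjusted p = 0.019), with adjusted p values of 0.070, 0.069 and 0.066 without control array 2, control array 3 or NXF1 siRNA array 1. Without control array 2, or without NXF1 siRNA array 1 or 2, 3 of the 25 genes rose in place of 5. Over all genes 1185, 1555 and 1258 rose in those fits, in place of 1521.

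Among the genes that fell, LSS gave 9.73, 9.59 and 9.52 with control siRNA, 9.96, 9.71 and 9.68 with GANP siRNA, and 9.25, 8.95 and 9.26 with NXF1 siRNA. The NXF1 siRNA arrays were the lowest and overlapped with neither other group (difference from control -0.46, standard error 0.11, adjusted p = 0.0070). This is the value of the brightest LSS probe, and with the mean of the 3 LSS probes the difference was -0.18 without a call (adjusted p = 0.15). TMEM97 gave 11.14, 11.41 and 11.19, again below every control array. Its difference of -0.44 (standard error 0.09, adjusted p = 0.0028) came beside -0.44 after GANP siRNA, and these comparisons share the control arrays.

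The other enzymes were not called after NXF1 siRNA. NSDHL, the dehydrogenase of C4 demethylation, gave 10.29, 10.34 and 10.05 with control siRNA, 10.19, 10.32 and 10.21 with GANP siRNA, and 10.45, 10.39 and 10.49 with NXF1 siRNA. Its NXF1 siRNA arrays were above all others, but the difference from control was 0.22 (standard error 0.09, adjusted p = 0.092) and that between GANP and NXF1 siRNA -0.21 (adjusted p = 0.13). HMGCS1 was below every control array on all 3 NXF1 siRNA arrays, with a mean difference of -0.16 (adjusted p = 0.17). The other 10 enzymes that were not called, MVK, PMVK, MVD, IDI1, FDPS, SQLE, LBR, HSD17B7, EBP and DHCR7, differed from control by -0.16 to 0.15.

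By steps of the route, 4 of the 9 enzymes from lanosterol to cholesterol rose after NXF1 siRNA and 0 fell, and their median was 0.22. After GANP siRNA 2 of these 9 rose, with a median of 0.080. Of the 5 enzymes of the mevalonate arm, 1 rose after each depletion, which was ACAT2 both times, with medians of 0.0078 after GANP siRNA and -0.0064 after NXF1 siRNA. Split by place, 4 of the 11 enzymes in membranes rose and 1 fell after NXF1 siRNA (median 0.15), beside 1 rising of 7 soluble enzymes (median -0.11). The split by place nearly repeats that by step. The membrane enzymes are the 9 above with SQLE and LSS, and the same 4 rose. The soluble enzymes are those of the mevalonate arm and the isoprenoid steps. Over all genes 11.6% rose and 14.0% fell after NXF1 siRNA and 6.28% rose after GANP siRNA, and with so few genes in a group a single call moves its share far. No test compared these groups of genes with each other.

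**Figure D2:**
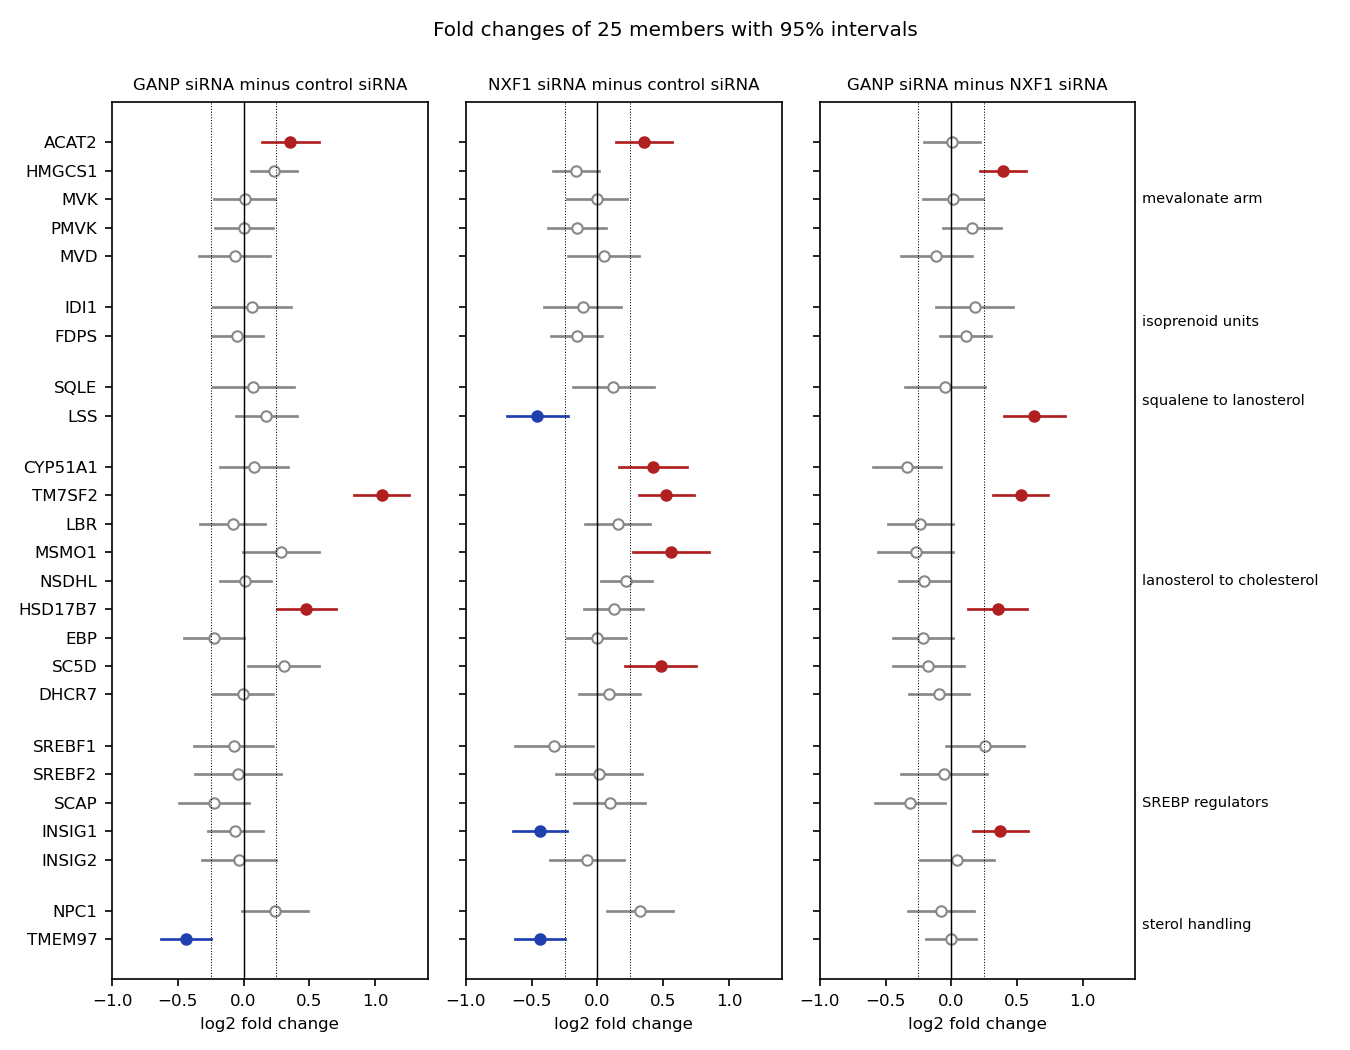
Log2 fold change (horizontal axis) of the 25 tested genes, listed down the side by step of the pathway, in the 3 comparisons; lines are 95% intervals, filled red points were called up, filled blue points called down, open grey points were not called, and dotted lines mark -0.25 and 0.25. TM7SF2 reached 1.05 after GANP siRNA, while LSS, at -0.46 after NXF1 siRNA, was 0.63 higher with GANP than with NXF1 siRNA.

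The direct comparison of the depleted groups asked where the depletions differ. With GANP siRNA 5 genes were higher than with NXF1 siRNA, LSS by 0.63, TM7SF2 by 0.53, HMGCS1 by 0.39, INSIG1 by 0.37 and HSD17B7 by 0.35 on the log2 scale. Of the 25 tested, 5 (20%) were called higher and 0 lower, against 11.3% and 8.29% of all genes, and 8 of the 25 (32%) had an unadjusted p under 0.05, against 32.5% of all genes. The median was -0.0017, beside -7.6e-04 over all genes, with 12 genes above 0 and 13 below.

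The LSS groups were separated by more than their own spread (standard error 0.11, adjusted p = 0.0015), and the difference was present in each experiment, at 0.70, 0.76 and 0.42. For TM7SF2 the standard error was 0.10 (adjusted p = 0.0024). HMGCS1 had been called in neither comparison with control, yet it gave 11.95, 12.16 and 12.02 with GANP siRNA, 11.61, 11.60 and 11.75 with NXF1 siRNA, and 11.85, 11.80 and 11.80 with the control. Its control arrays therefore sat between the depleted groups without overlapping either, and the difference of 0.39 (standard error 0.08, adjusted p = 0.0049) held in all 18 alternatives that gave it a value, as did those of LSS and TM7SF2.

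HSD17B7 gave 9.75, 9.63 and 9.76 with NXF1 siRNA, below all GANP siRNA arrays. Its difference of 0.35 (standard error 0.10, adjusted p = 0.030) was lost without GANP siRNA array 1 or 3, or NXF1 siRNA array 2 or 3 (adjusted p = 0.069, 0.117, 0.108 and 0.0531). ACAT2 and TMEM97, called in the same direction after each depletion, had 95% intervals of -0.21 to 0.22 and -0.19 to 0.19 for the difference between the depletions.

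On the other side, CYP51A1 was lower with GANP than with NXF1 siRNA by 0.34 without a call (adjusted p = 0.063), and it was called without control array 2 (adjusted p = 0.036). MSMO1 was lower by 0.27 (adjusted p = 0.18) and was called with the experiment block (adjusted p = 0.032). Without GANP siRNA array 3, 3 genes were called lower, MSMO1 at -0.41, LBR at -0.35 and SC5D at -0.34 (adjusted p = 0.040, 0.045 and 0.028). Without NXF1 siRNA array 1, SCAP was called lower, at -0.42 (adjusted p = 0.038), and without NXF1 siRNA array 3 the count of higher genes was 3. Over all genes 900 were lower without GANP siRNA array 3, in place of 1088. Without NXF1 siRNA array 3, 1220 of all genes were higher, in place of 1483.

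Of the 5 regulators, 0 were called after GANP siRNA (0 also at an unadjusted p under 0.05), with log2 fold changes between -0.22 and -0.033. Over all genes 6.28% rose and 5.90% fell, and 26.0% had an unadjusted p under 0.05. After NXF1 siRNA 1 of 5 was called, INSIG1, which fell, beside 14.0% of all genes that fell. INSIG1 gave 10.77, 10.75 and 10.54 with control siRNA, 10.63, 10.71 and 10.53 with GANP siRNA, and 10.36, 10.29 and 10.10 with NXF1 siRNA. The NXF1 siRNA arrays were the lowest, while the GANP and control arrays overlapped. Within experiments INSIG1 fell by 0.41, 0.45 and 0.44 (mean difference -0.43, standard error 0.10, adjusted p = 0.0047), and it was 0.37 higher with GANP than with NXF1 siRNA (adjusted p = 0.016). The last of these was lost without GANP siRNA array 2 or NXF1 siRNA array 3 (adjusted p = 0.069 and 0.065). These are values of the brightest INSIG1 probe, and both calls were lost with the mean of its probes (-0.059 and 0.12, adjusted p = 0.62 and 0.30).

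SREBF1, which encodes the SREBP-1 precursors, gave 8.28, 8.32 and 8.38 with control siRNA, 8.18, 8.01 and 8.56 with GANP siRNA, and 7.74, 8.04 and 8.19 with NXF1 siRNA. All NXF1 siRNA arrays were below the controls, and the difference was -0.33 (standard error 0.14, adjusted p = 0.096), which was called with the experiment block (adjusted p = 0.028) and without GANP siRNA array 3 (adjusted p = 0.042). SREBF2, which encodes SREBP-2, gave 6.83, 6.99 and 6.67 with control siRNA, 6.84, 6.75 and 6.77 with GANP siRNA, and 7.25, 6.50 and 6.78 with NXF1 siRNA. Its NXF1 siRNA arrays held both the highest and the lowest value of the 9, and the 95% interval of that difference was -0.31 to 0.34.

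SCAP, the escort of the SREBP precursors, gave 9.92, 9.62 and 9.56 with control siRNA, 9.30, 9.48 and 9.64 with GANP siRNA, and 9.59, 9.96 and 9.83 with NXF1 siRNA. The groups overlapped in every comparison, and the GANP siRNA difference went from -0.61 in experiment 1 to 0.079 in experiment 3. INSIG2, the second INSIG, gave 8.96, 9.15 and 8.96, then 9.02, 8.97 and 8.98, then 9.28, 8.91 and 8.64 in the same order of groups. No group stood apart, and NXF1 siRNA gave the widest spread, with a difference of -0.079 (95% interval -0.36 to 0.20).

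NPC1, which exports cholesterol from lysosomes, gave 8.25, 8.11 and 8.31 with NXF1 siRNA, beside 7.86, 7.84 and 8.01 in the control group. The groups did not overlap, but the difference of 0.32 (standard error 0.11, adjusted p = 0.058) missed the threshold. It was called with the experiment block (adjusted p = 0.0081) and without GANP siRNA array 2 or 3 (adjusted p = 0.030 and 0.025). After GANP siRNA the NPC1 difference was 0.24 (adjusted p = 0.21).

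For 8 of the 25 genes more than 1 probe passed the filter, and the probes did not always move together. INSIG1 was the 1 gene with probes called in opposite directions. Its brightest probe, annotated to one RefSeq transcript, fell by 0.43 after NXF1 siRNA, while a dimmer probe annotated to another transcript (mean log2 signal 8.03) rose by 0.32 (adjusted p = 0.035 over all kept probes). The direction given for INSIG1 is therefore that of 1 probe. Which transcripts each probe reads was not tested.

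LSS had 3 kept probes. The brightest carried the fall after NXF1 siRNA, while the others differed by -0.075 and 0.0038, and the dimmest of the 3 rose by 0.36 after GANP siRNA (adjusted p = 0.029). In the direct comparison all 3 LSS probes were higher with GANP siRNA, by 0.63, 0.20 and 0.35, and 2 of these were called. Both kept MSMO1 probes were higher after NXF1 siRNA, the dimmer by 0.33 (adjusted p = 0.078) beside the 0.56 of the brighter. In the direct comparison they differed, at -0.27 for the brighter and -0.016 for the dimmer (adjusted p = 0.95). The other SC5D probe, near the floor at a mean of 6.48, differed by -0.060. SREBF1 had 3 probes, none of them called, at -0.33, -0.23 and -0.0069 after NXF1 siRNA.

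**Figure D3:**
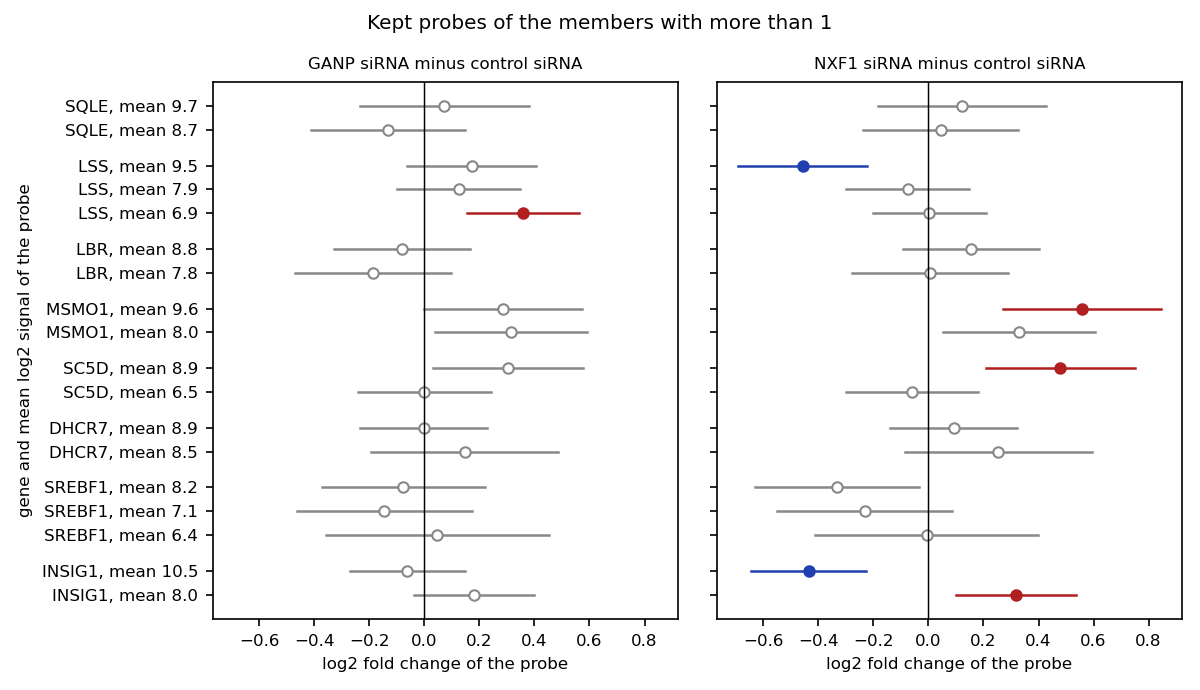
Log2 fold change (horizontal axis) of each kept probe of the 8 genes with more than 1, after GANP siRNA (left) and NXF1 siRNA (right), with 95% intervals; the side labels give the gene and the probe's mean log2 signal, and red, blue and open grey points were called up, down and not called. After NXF1 siRNA the INSIG1 probe at 10.5 fell by 0.43 while the probe at 8.0 rose by 0.32.

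Around the pathway, 4 lists of neighbouring genes were counted with the same calls. The lists were chosen with earlier results of these data known, so their shares beside those of all genes are a description only. Of 13 tested lipogenic SREBP targets, 2 (15.4%) rose and 7 (53.8%) fell after NXF1 siRNA, against 11.6% and 14.0% of all genes, and the median of the list was -0.37, beside -0.0030 over all genes. SCD, the stearoyl-CoA desaturase, fell by 0.71, FASN, the fatty acid synthase, by 0.53 and ACACA, which makes malonyl-CoA, by 0.52, while the fatty acid elongase ELOVL5 rose by 0.47. After GANP siRNA 2 rose and 2 fell (15.4% each, against 6.28% and 5.90%), with a median of -0.068. These were ALDOC, a glycolytic aldolase, at 0.72, ELOVL5 at 0.41, the elongase ELOVL6 at -0.49 and SCD at -0.43. Directly compared, 5 (38.5%) were higher with GANP siRNA and 0 lower, against 11.3% and 8.29%, with ALDOC at 0.97, ACACA at 0.49, FASN at 0.43 and ACLY, the ATP citrate lyase that supplies cytosolic acetyl-CoA, at 0.40.

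Of 18 tested genes of sterol sensing and SREBP processing, 7 (38.9%) rose and 1 (5.56%) fell after NXF1 siRNA, against 11.6% and 14.0% of all genes. SPRING1, a cofactor of the site-1 protease that cuts SREBP, rose by 0.87, AUP1, a lipid droplet protein that takes part in degradation at the endoplasmic reticulum, by 0.80, and SEC24D and SAR1B, parts of the COPII coat that buds vesicles toward the Golgi, by 0.73 and 0.71. After GANP siRNA 2 (11.1%, against 6.28%) rose and 0 fell, MYLIP, a sterol-induced ubiquitin ligase, by 0.65 and SEC23A, another COPII subunit, by 0.29. In the direct comparison 5 (27.8%, against 8.29%) were lower with GANP siRNA and 0 higher, including AUP1 at -0.81, SPRING1 at -0.65, SAR1B at -0.52 and the site-2 protease gene MBTPS2 at -0.44.

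Of 22 tested genes of sterol transport and storage, 5 (22.7%, against 11.6%) rose and 3 (13.6%, against 14.0%) fell after NXF1 siRNA, among them NCEH1, a cholesteryl ester hydrolase, at 0.65, the oxysterol-binding family members OSBPL8 at 0.53 and OSBPL1A at 0.48, and the START domain gene STARD5 at -0.55. After GANP siRNA RXRA, the partner of the LXR receptors, rose by 0.39, OSBPL9 rose by 0.29 and STARD5 fell by 0.39, which is 9.09% rising and 4.55% falling, near the 6.28% and 5.90% of all genes. In the direct comparison 2 were higher and 3 lower with GANP siRNA (9.09% and 13.6%, against 11.3% and 8.29%).

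Of 17 tested genes that use isoprenoids, 4 (23.5%, against 11.6%) rose and 1 (5.88%, against 14.0%) fell after NXF1 siRNA, including the CAAX protease RCE1 at 0.81, the dolichyl pyrophosphatase DOLPP1 at 0.75, ZMPSTE24, another CAAX protease, at 0.59 and the Rab prenyltransferase subunit RABGGTA at -0.34. After GANP siRNA 1 of the 17 changed, PDSS1, which makes the side chain of coenzyme Q and fell by 0.40, a share of 5.88% beside 5.90% of all genes. In the direct comparison 0 were higher and 5 lower with GANP siRNA (29.4%, against 8.29%), including RCE1 at -0.86, DOLPP1 and ZMPSTE24 at -0.64 each and PDSS1 at -0.34. With the experiment block 1 was higher and 6 were lower. Over all 13118 genes the block gave 1758 higher and 1404 lower, in place of 1483 and 1088.

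**Figure D4:**
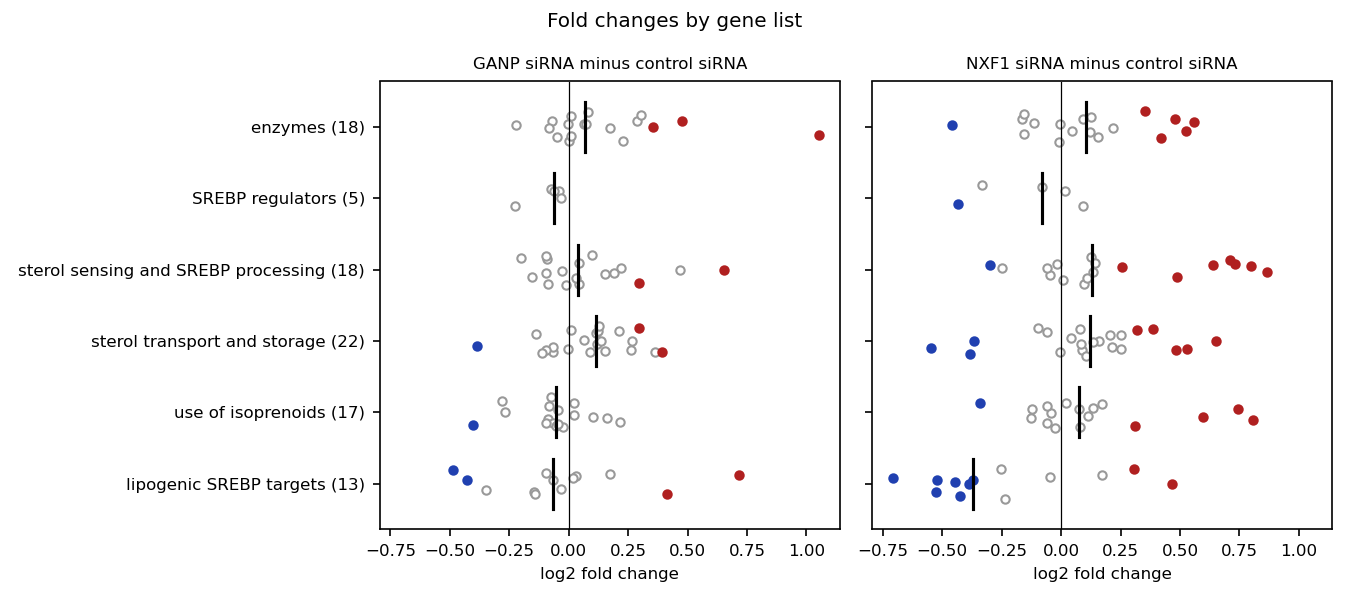
Log2 fold change (horizontal axis) after GANP siRNA (left) and NXF1 siRNA (right) of the tested enzymes, SREBP regulators and 4 neighbouring lists, with the number of genes in brackets; each point is 1 gene, red called up, blue called down, open grey not called, and bars are medians (vertical scatter within a list has no meaning). The median of the lipogenic SREBP targets was -0.37 after NXF1 siRNA and -0.068 after GANP siRNA.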

How the data were processed

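Per the methods, the authors amplified cytoplasmic RNA, hybridised it to Illumina HumanWG-6 v3 arrays, read them in BeadStudio, quantile normalized the signals and used lumi (version not given) and limma. The deposited value table holds linear signal intensity for 48803 probes (array medians 95.2 to 95.3). A further deposited table, of signals before normalization, has 18 columns that no label pairs with a sample, and they were not used. Here limma 3.58.1 (R 4.3.3) applied normexp (offset 50), a second quantile normalization and log2. Of the probes, 27578 carried 1 gene symbol, and 17568 of these were brighter on average than the median probe (log2 6.35). The brightest per gene gave 13118 genes. The groups, taken from the sample labels, were fitted together by lmFit with eBayes moderation (degrees of freedom: 6 residual, 6.43 prior), in 3 comparisons, with Benjamini-Hochberg adjustment within each. A positive GANP versus NXF1 value is higher with GANP siRNA. The thresholds were an adjusted p of 0.05 and a log2 fold change of 0.25 in size. Precision is limited by 3 arrays per group.

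The experiment number in the sample labels pairs the arrays. After group means were removed, the 9 pairs with the same number correlated at 0.107 to 0.461 across genes and the other 18 pairs at -0.40 to 0.12. These ranges overlap slightly and are not independent. Removing the group means makes the other pairs lower where the pairs with the same number are higher. A fit with the experiment number as a block was 1 of 21 alternatives. The text accounts for all 28 genes, gives array values for each called gene and each regulator, and names up to 4 called genes of each list with the largest change. Members and lists were chosen with earlier results of these data known. The fit was tested on simulated data whose arrays were drawn independently, so that test does not cover the pairing by experiment.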

Additional observations from a re-analysis of the deposited data

How the results depend on the processing

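The 17 called values of single genes were refitted under 18 alternatives each (17 for CYP51A1), 305 refits in all. Of these 282 kept the call, 23 lost it and 0 changed direction. With the mean of a gene's probes the calls of INSIG1 (-0.059, adjusted p = 0.62), LSS (-0.18, adjusted p = 0.15) and SC5D (0.21, adjusted p = 0.19) after NXF1 siRNA and of INSIG1 between the depletions (0.12, adjusted p = 0.30) were lost, and 1 gene fell after NXF1 siRNA in place of 3. The replicate block, which added the calls given above, changed no other call and left 1 gene lower with GANP than with NXF1 siRNA in place of 0, as did separate fits of each pair of groups; at an adjusted p under 0.1 this count was 2. At an adjusted p under 0.01, 1 gene rose after GANP siRNA, 2 after NXF1 siRNA and 3 were higher with GANP than with NXF1 siRNA. Leaving out 1 array at a time, 1 to 4 genes rose after GANP siRNA, 3 to 6 after NXF1 siRNA, and 3 to 5 were higher and 0 to 3 lower with GANP than with NXF1 siRNA.

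Over all genes, an adjusted p under 0.01 left 352 rising and 307 falling after GANP siRNA, 938 and 1189 after NXF1 siRNA, and 849 higher and 483 lower between the depletions. The replicate block gave 1194 rising and 1114 falling after GANP siRNA and 1791 and 2072 after NXF1 siRNA. Between the depletions it gave 1758 higher and 1404 lower. Leaving out 1 array gave 488 to 903 rising and 392 to 864 falling after GANP siRNA, and 1185 to 1559 rising after NXF1 siRNA. Between the depletions those fits gave 1060 to 1495 higher and 674 to 1128 lower. With the mean of a gene's probes 1689 genes fell after NXF1 siRNA, in place of 1842. Separate fits of each pair of groups gave 944 lower between the depletions, and an adjusted p under 0.1 gave 1327, in place of 1088.

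Of the 58 values not called, 46 of 1039 refits changed sign, all around 0. With the mean of probes these were DHCR7 (0.072), INSIG1 (0.059) and SQLE (-0.030) after GANP siRNA. Leaving out 1 array, the log2 fold change after GANP siRNA ran from -0.051 to 0.17 for CYP51A1, -0.082 to 0.095 for DHCR7, -0.078 to 0.0015 for FDPS, -0.10 to 0.18 for IDI1, -0.066 to 0.033 for INSIG2, -0.21 to 0.083 for MVD, -0.098 to 0.093 for MVK, -0.078 to 0.068 for NSDHL, -0.080 to 0.096 for PMVK, -0.081 to 0.21 for SQLE, -0.23 to 0.045 for SREBF1 and -0.12 to 0.036 for SREBF2. After NXF1 siRNA it ran from -0.070 to 0.069 for EBP, -0.28 to 0.0046 for IDI1, -0.25 to 0.070 for INSIG2, -0.012 to 0.11 for MVD, -0.049 to 0.060 for MVK and -0.19 to 0.19 for SREBF2. Between the depletions it ran from -0.081 to 0.074 for ACAT2, -0.17 to 0.0032 for DHCR7, -0.10 to 0.21 for INSIG2, -0.25 to 0.037 for MVD, -0.091 to 0.099 for MVK, -0.20 to 0.046 for NPC1, -0.20 to 0.088 for SQLE, -0.23 to 0.15 for SREBF2 and -0.053 to 0.078 for TMEM97. The standard error of a difference was 0.081 to 0.15 over the 25 genes, and a single siRNA per target leaves effects of the siRNA sequence untested.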
